A study of Homo sapiens with 8 samples.

Results

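The 10 genes described here encode enzymes that build purine and pyrimidine nucleotides from small precursors, which is called de novo synthesis. They were chosen by name as PPAT, GART, PAICS, ADSL, ATIC, IMPDH2, GMPS, CAD, UMPS and CTPS1, all 10 were found among the 38148 genes of the deposited table, and all 10 passed the filter on low values. After 24 h of selumetinib, an inhibitor of the MEK kinases that activate ERK, the mRNA of all 10 was lower in HT29 cells, the median log2 change being -2.02 in the CCNB1-negative fraction and -1.42 in the CCNB1-positive one. PAICS and CTPS1 fell the most in both fractions and ADSL the least. CTPS2, the isozyme of CTPS1, rose.

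Purine synthesis starts when PPAT commits phosphoribosyl pyrophosphate (PRPP) to the pathway. GART, PFAS, PAICS, ADSL and ATIC then assemble the purine ring as inosine monophosphate (IMP), from which IMPDH and GMPS make guanine nucleotides and ADSS and ADSL make adenine nucleotides. Pyrimidine synthesis starts with CAD, passes through DHODH in mitochondria and UMPS, and ends with the CTP synthases CTPS1 and CTPS2. These pathways feed RNA and DNA synthesis in growing cells, many of their genes are known targets of the transcription factor MYC, and the CAD protein is a known ERK substrate.

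HT29 cells come from a human colorectal cancer and carry a BRAF mutation. Cells were left untreated or were given selumetinib at 1 µM for 24 h, then were fixed in glyoxal, stained for cyclin B1 (the product of CCNB1, which builds up towards mitosis) and sorted by flow cytometry before mRNA-seq. Treatment and sort gave 4 groups, namely CCNB1-negative and CCNB1-positive cells without drug and CCNB1-negative and CCNB1-positive cells with selumetinib, of 2 libraries each. No source used here says whether the 2 libraries of a group came from separate cultures, so p-values measure only the spread between these libraries, which may be technical.

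Reads on genes numbered from 12696860 to 23916160 per library, and each of the 10 genes had between 155 and 8682 reads in every library. For all 8 libraries the sample title gives the reverse of the treatment and of the fraction that the description gives, and the groups here are those of the descriptions, which also head the table's columns. If the titles were right, every selumetinib response below would belong to the other fraction with its sign turned, and the differences between fractions would move to the other treatment with their signs turned, whereas the interaction would be the same. Under the descriptions, 9 of 10 ERK output genes were lower with selumetinib in each fraction and 1, EGR1, was higher, and 5 of 5 G2/M genes were higher in CCNB1-positive cells in each treatment. The growth medium also differs between labels and methods. All 9 epithelial markers had reads in every library, with a sum of 10782 to 12080 RPM (reads per 1000000 reads on genes) in untreated and 5419 to 9164 RPM in treated libraries. The 8 markers of other cell types summed to 7.59 to 9.06 RPM in untreated and 7.80 to 10.3 RPM in treated CCNB1-negative libraries, and to 7.11 to 8.17 RPM and 12.05 to 17.7 RPM in CCNB1-positive ones. CD68 had 64 to 231 reads per library, COL1A1 6 to 107 and PECAM1 3 to 25, while PTPRC had at most 11, VIM at most 5 and COL1A2, CD3E and HBB at most 1. Of the 2 that passed the filter on low values, COL1A1 changed by 1.81 and 2.19 on the log2 scale in the respective fractions. It lay under 1 RPM in both untreated CCNB1-negative libraries and passed the filter through other libraries, so no test of it is given. CD68 changed by -0.35 and 0.45, neither called. The part of such cells in the results was not tested. The libraries are bulk samples scaled to reads, so fewer cells expressing a gene and less of its RNA per cell cannot be told apart, and no value gives RNA per cell.

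PPAT and PAICS lie head to head on chromosome 4 and are shown first because neighbours with 1 short interval between their spans fell to different depths in CCNB1-negative cells. In GRCh38, PPAT (ENSG00000128059) takes up chr4:56393362-56435615 on the minus strand and PAICS (ENSG00000128050) chr4:56435741-56464579 on the plus strand. The 125 bases between them, chr4:56435616-56435740, read 5′ to 3′ on the plus strand with each CG dinucleotide in capitals, are as follows.
PPAT-PAICS interval: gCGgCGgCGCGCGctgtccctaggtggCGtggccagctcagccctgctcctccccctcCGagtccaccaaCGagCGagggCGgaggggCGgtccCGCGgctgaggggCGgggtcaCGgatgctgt
The interval held 76% G and C and 15 CG dinucleotides.

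Promoters were searched on both strands for the E-box CACGTG bound by MYC, the ETS core CCGGAAG and the NRF1 motif GCGCAN followed directly by GCGC, in the 250 bases before each RefSeq start (GRCh38.p14). 8 of the 10 genes had an entry, and IMPDH2 and ADSL were not in the table. These 8 genes had 13 promoters in the table, since some had several starts, and the shares are counted over promoters. The E-box stood in 2 of the 13, those of ATIC and PPAT, against 6.34% of all 35116 promoters and 8.31% of those of tested genes. The NRF1 motif stood in 2 of 13, 1 of CTPS1 and 1 of PAICS, against 5.07% and 8.90%, and the ETS core in 0 of 13, against 8.52% and 14.3%. The matches, in capitals within 30 bases and read on the strand of the gene, (for NRF1 these are the reverse complement of the letters above) are shown because they are the sequence features that some of these genes have and others lack.
ATIC, E-box starting at -46, chr2:215312001-215312030 (+): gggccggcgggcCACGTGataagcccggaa
PPAT, E-box starting at -182, chr4:56435780-56435809 (-): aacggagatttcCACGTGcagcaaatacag
CTPS1, NRF1 motif starting at -72, chr1:40979614-40979643 (+): gtcctgtcccGCGCCTGCGCactccaggcc
PAICS, NRF1 motif starting at -177, chr4:56436073-56436102 (+): tcgcgtctctGCGCCTGCGCggcgggaagc
A match is a string of letters and not evidence of binding. The PPAT match lies inside the transcribed span of PAICS. The ATIC and PAICS matches lie inside the spans given here for those genes themselves. Their positions count from RefSeq starts at 215312059 for ATIC and 56436260 for PAICS, which lie further along than the span starts. Both genes with and genes without a match fell.

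Values below are the authors' log2 values, which are log2 reads scaled so that the total read count of each library equals that of the largest, so that 1 unit is a 2-fold change. PPAT, the committed step of purine synthesis, stood at 10.002 and 10.12 in untreated CCNB1-negative libraries and at 7.93 and 8.19 after selumetinib. In CCNB1-positive libraries it stood at 9.88 and 9.93 untreated and at 8.43 and 8.62 treated. Treated and untreated libraries did not overlap, and PPAT fell by 2.003 on the log2 scale in CCNB1-negative cells (SE 0.16, 4.01-fold, limma adjusted p = 1.3e-07) and by 1.38 in CCNB1-positive cells (SE 0.16, 2.61-fold, adjusted p = 8.9e-06).

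PAICS, which joins carboxylation and the following aspartate addition in 1 protein, stood at 13.14 and 13.38 in untreated CCNB1-negative libraries against 10.23 and 10.13 treated. In CCNB1-positive libraries it stood at 13.06 and 13.22 untreated and 10.92 and 11.24 treated. The treated libraries of both fractions lay far under the untreated ones, those of CCNB1-negative cells the lowest. PAICS fell by 3.08 (SE 0.16, 8.46-fold, limma adjusted p = 3.2e-09) and by 2.06 (SE 0.16, 4.17-fold, adjusted p = 3.3e-07) on the log2 scale in the respective fractions. Of all 14219 genes tested, 1.13% had a more negative change in the CCNB1-negative fraction and 0.549% in the CCNB1-positive one. PAICS minus PPAT, a log2 ratio of the neighbours, was 3.14 to 3.28 in the 4 untreated libraries, 2.30 and 1.95 in treated CCNB1-negative and 2.48 and 2.62 in treated CCNB1-positive libraries. All 4 treated values were lower, and the 95% intervals of the neighbours' changes in CCNB1-negative cells, -3.42 to -2.74 for PAICS and -2.36 to -1.65 for PPAT, did not overlap. In CCNB1-positive cells, where PAICS changed by -2.06 and PPAT by -1.38, the intervals overlapped slightly.

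GART (ENSG00000159131, chr21:33503931-33543491, minus strand), a protein with several activities of the same pathway, went from 11.37 and 11.53 to 9.75 and 9.87 in CCNB1-negative libraries. In CCNB1-positive libraries it went from 11.22 and 11.40 to 9.78 and 9.92. The treated values of the fractions coincided, and GART fell by 1.64 (SE 0.15, limma adjusted p = 2.7e-07) and 1.46 (SE 0.15, adjusted p = 2.2e-06) on the log2 scale. SON overlaps GART on the opposite strand and stood at 12.26 to 12.35 untreated and 11.84 to 12.14 treated. The strand setting of the counting is not given in the sources used here, so reads of an overlapping pair may be shared.

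ATIC (ENSG00000138363, chr2:215311956-215349773, plus strand), which closes the ring to IMP, stood at 12.13 and 12.35 in untreated and at 10.08 in both treated CCNB1-negative libraries. In CCNB1-positive cells it stood at 12.09 and 12.25 untreated and 10.40 and 10.36 treated. ATIC fell by 2.15 (SE 0.14, limma adjusted p = 2.1e-08) and 1.79 (SE 0.14, adjusted p = 4.1e-07) on the log2 scale.

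ADSL (ENSG00000239900, chr22:40346500-40390463, plus strand), which acts both before IMP and in making AMP, changed the least. It stood at 10.76 and 11.18 in untreated against 10.01 and 10.30 in treated CCNB1-negative libraries, and at 11.08 and 11.15 against 9.94 and 10.27 in CCNB1-positive ones. The groups were apart by 0.46 at their nearest, the smallest gap of the 10 genes. ADSL fell by 0.82 (95% interval -1.20 to -0.44, limma adjusted p = 0.00082) and by 1.01 (-1.39 to -0.63, adjusted p = 0.00022) on the log2 scale. In CCNB1-negative cells its interval lay above those of the other 9 genes, whereas in CCNB1-positive cells it overlapped 6 of them and lay above those of PAICS, CTPS1 and ATIC. SGSM3 overlaps ADSL on the same strand and stood at 10.79 to 11.01 in all 8 libraries.

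IMPDH2 (ENSG00000178035, chr3:49024325-49029408, minus strand) encodes the main IMP dehydrogenase of proliferating cells, the rate-limiting step towards GTP. Its values were 12.57 and 12.80 in untreated and 11.13 and 11.07 in treated CCNB1-negative libraries, and 12.62 and 12.79 against 11.40 and 11.74 in CCNB1-positive ones. IMPDH2 fell by 1.58 (SE 0.16, limma adjusted p = 8.5e-07) and 1.14 (SE 0.16, adjusted p = 3.5e-05) on the log2 scale. GMPS (ENSG00000163655, chr3:155870650-155944020, plus strand), the next enzyme, stood at 11.69 and 11.96 against 9.77 and 9.82 in CCNB1-negative libraries. In CCNB1-positive libraries GMPS stood at 11.37 and 11.55 against 10.15 in both. It fell by 2.03 (SE 0.15, adjusted p = 4.4e-08) and 1.31 (SE 0.15, adjusted p = 5.4e-06), so both guanine steps were lower with selumetinib and no treated library reached an untreated one.

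CAD (ENSG00000084774, chr2:27217369-27243943, plus strand) carries the opening activities of pyrimidine synthesis in 1 protein. Its values were 11.44 and 11.18 untreated and 9.76 and 9.82 treated in CCNB1-negative libraries, and 11.72 and 11.54 against 10.25 and 10.35 in CCNB1-positive ones. CAD fell by 1.52 (SE 0.15, limma adjusted p = 5.7e-07) and 1.33 (SE 0.15, adjusted p = 4.9e-06) on the log2 scale. UMPS (ENSG00000114491, chr3:124730433-124749273, plus strand), which makes UMP, stood at 11.20 and 11.47 against 8.96 and 9.01, and at 11.20 and 11.42 against 9.66 and 9.72. Its treated CCNB1-positive libraries lay between the untreated and the treated CCNB1-negative ones, and it fell by 2.34 (SE 0.15, 5.08-fold, adjusted p = 1.7e-08) and 1.62 (SE 0.15, 3.07-fold, adjusted p = 1.4e-06).

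CTPS1 (ENSG00000171793, chr1:40979688-41012565, plus strand), the CTP synthase that dividing lymphocytes are known to need, stood at 12.14 and 12.16 in untreated against 9.28 and 9.37 in treated CCNB1-negative libraries. In CCNB1-positive cells it stood at 11.99 and 12.05 against 9.77 and 10.25. The last 2 values differ by 0.48, the largest difference between libraries of 1 group for any of the 10 genes, yet both lay under every untreated library. CTPS1 fell by 2.83 (SE 0.16, 7.09-fold, limma adjusted p = 7.0e-09) and by 2.01 (SE 0.16, 4.03-fold, adjusted p = 4.7e-07) on the log2 scale.

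**Figure D1:**
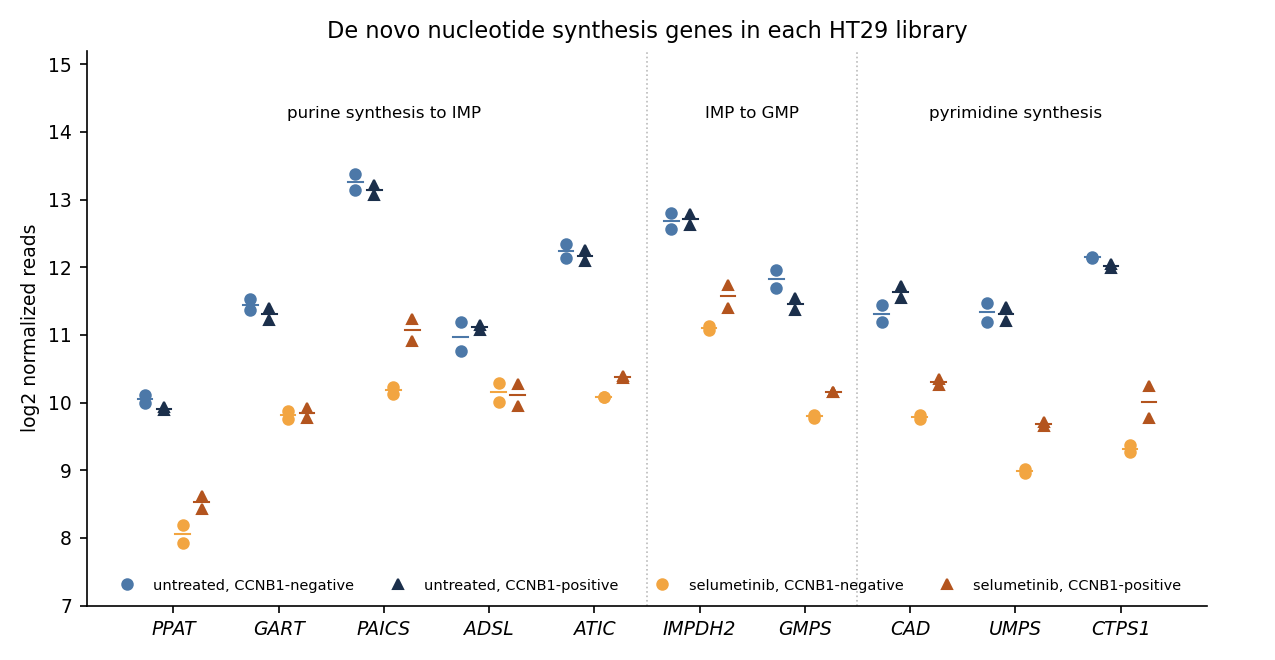
Log2 normalized reads (vertical axis) of the 10 genes (horizontal axis) in each of the 8 libraries, with circles for CCNB1-negative and triangles for CCNB1-positive cells and a line at the mean of the 2 libraries of a group. For each gene the selumetinib libraries (orange and brown) lie under the untreated ones (blue) of the same fraction, by 0.46 at the nearest. How many of all genes separate in this way was not counted, and 35.8% and 27.3% of them were called lower in the respective fractions.

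Taken by role, all 5 genes of the route to IMP, both guanine steps and all 3 pyrimidine genes fell in each fraction. Of all genes tested, 35.8% were lower and 38.2% higher with selumetinib in CCNB1-negative cells, and 27.3% were lower and 38% higher in CCNB1-positive cells, so single calls were common. The split depended on scaling: of the genes called, 51.6% were higher in the CCNB1-negative fraction and 58.1% in the CCNB1-positive one, against 42.9% and 40.9% with median-of-ratios scaling. Changes of the size seen in the enzymes were less common, since the median change of all genes was 0.05 and 0.17 in the respective fractions, and from 1.13% (PAICS) to 25.7% (ADSL) of genes had a more negative change than a given enzyme in the CCNB1-negative fraction and 0.549% to 9.68% in the CCNB1-positive one. Together the 10 genes took 1596 and 1792 RPM in untreated CCNB1-negative libraries and 434 and 457 RPM after treatment, which is 26.3% of the untreated mean. In CCNB1-positive libraries they took 1554 and 1673 RPM untreated and 544 and 641 RPM treated, which is 36.7%. In every alternative of scaling, filter, model and left-out library all 10 were called lower in both fractions, except that with a required 2-fold change ADSL was not called in CCNB1-negative cells.

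Levels can be compared between genes only per length, here as reads per kilobase of the Ensembl canonical transcript (GENCODE release 44) per 1000000 reads on genes (RPKM). On that scale IMPDH2 was the most abundant in untreated libraries at 155 to 179 RPKM, followed by ATIC at 92.5 to 110 RPKM. PAICS at 56.2 to 69.7 RPKM and CTPS1 at 59.8 to 66.9 RPKM overlapped each other, and GART stood at 30.0 to 37.1 RPKM. ADSL, UMPS, CAD and GMPS overlapped one another between 12.8 and 22.2 RPKM, and PPAT was the lowest at 10.7 to 12.5 RPKM. After treatment IMPDH2 was still the highest at 60.6 to 93.2 RPKM, while GART at 11.8 to 13.1 RPKM and ADSL at 10.05 to 13.4 RPKM overlapped PAICS, at 8.20 to 17.1 RPKM, and CTPS1, at 9.94 to 19.3 RPKM.

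The next question is whether the enzymes differ between CCNB1 fractions. In untreated cells 0 of 10 did by limma, at an adjusted p under 0.05, against 1.51% of all genes lower and 1.36% higher in CCNB1-positive cells. The differences ran from -0.37 for GMPS to 0.32 for CAD on the log2 scale, these being the 2 genes with an unadjusted p under 0.05, and the 95% intervals of the 10 lay within -0.68 and 0.64.

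With selumetinib, 5 of 10 were higher in CCNB1-positive than in CCNB1-negative cells and 0 were lower, against 13.8% of all genes higher and 7.87% lower. Of the genes called there, 63.6% were higher, but 46.5% with quantile normalization. PAICS was higher by 0.90 on the log2 scale (SE 0.16, limma adjusted p = 0.0014), UMPS by 0.70 (SE 0.15, adjusted p = 0.0055), CTPS1 by 0.68 (SE 0.16, adjusted p = 0.0097) and CAD by 0.52 (SE 0.15, adjusted p = 0.024), so that all 3 pyrimidine genes were among them. IMPDH2 was higher by 0.47 with an adjusted p of 0.049. It was no longer called after any single library was left out, when its adjusted p ranged from 0.051 to 0.32. CAD was lost without selumetinib CCNB1-negative replicate 2 (adjusted p = 0.071), or without CCNB1-positive replicate 1 (0.089) or 2 (0.13), and CTPS1 without selumetinib CCNB1-positive replicate 2 (0.13). The values not called were 0.47 for PPAT, 0.36 for GMPS, 0.30 for ATIC, 0.04 for GART and -0.05 for ADSL, the interval for GART being -0.27 to 0.35 and for ADSL -0.43 to 0.33. The G2/M markers, CCNB1 among them, moved along with this contrast, at 64.3 to 86.3 RPM in treated CCNB1-negative and 2155 to 2351 RPM in treated CCNB1-positive libraries, and their part in the difference was not tested.

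The interaction, which is the response in CCNB1-positive minus that in CCNB1-negative cells, was positive for 9 of 10 genes, with a median of 0.53 against 0.11 for all genes. Since that median lies above 0, most genes tested had a positive interaction too, and their exact share was not counted. Of all genes, 4.99% had a called positive and 0.345% a called negative interaction. In the fit used here, which does not pair libraries by replicate number, the interaction was called for 1 of the 10. That gene was PAICS, with 1.02 (SE 0.22, limma adjusted p = 0.015). CTPS1 had 0.82 (adjusted p = 0.058), UMPS 0.73 (0.069) and GMPS 0.72 (0.062), and ADSL was the negative one with -0.19 (-0.73 to 0.35). PAICS was not called without untreated CCNB1-negative replicate 2 (adjusted p = 0.076), without untreated CCNB1-positive replicate 1 (0.080) or without selumetinib CCNB1-positive replicate 2 (0.093), and was not called without the filter on low values (0.057). CTPS1 was called without selumetinib CCNB1-positive replicate 1 (1.06, adjusted p = 0.018), and GMPS without untreated CCNB1-negative replicate 1 (0.85).

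**Figure D2:**
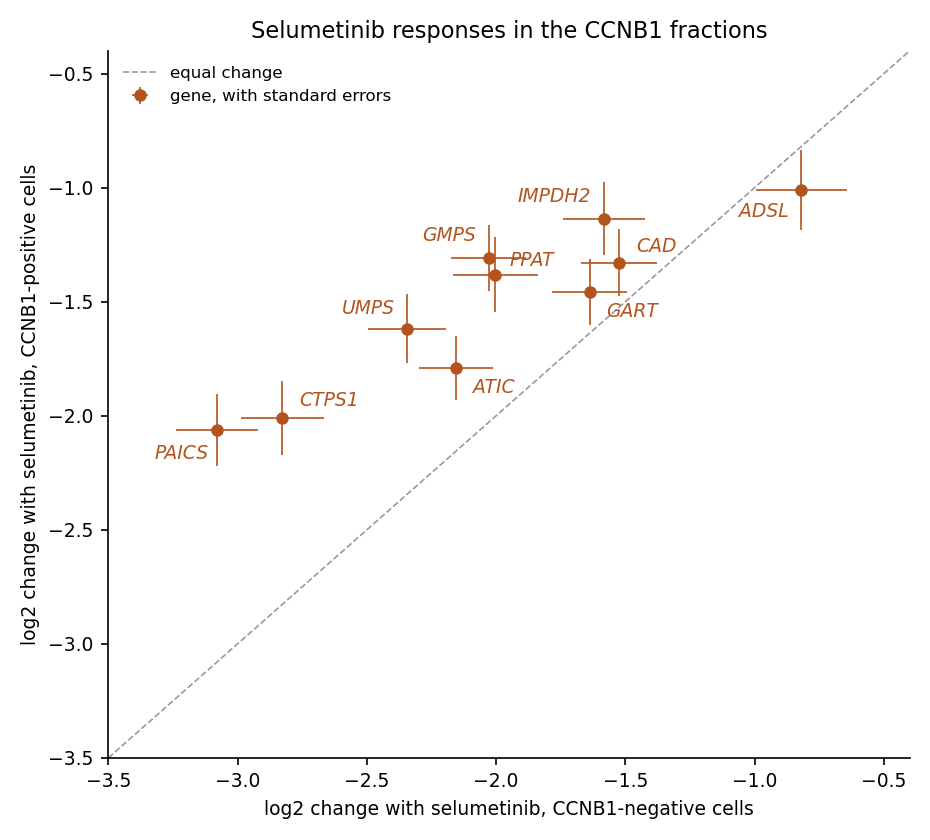
Log2 change with selumetinib in CCNB1-negative cells (horizontal axis) against that in CCNB1-positive cells (vertical axis) for the 10 genes, with standard errors from limma and a dashed line of equal change. Of the 10 points, 9 lie above the line, that is, with a smaller fall in CCNB1-positive cells, from PAICS at -3.08 and -2.06 to CAD at -1.52 and -1.33, and ADSL lies under it at -0.82 and -1.01. Most of all genes tested would also lie above the line, their median difference between the responses being 0.11.

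The remaining enzymes of the pathways were PFAS, DHODH and the isozymes IMPDH1, ADSS1, ADSS2 and CTPS2. Of these 6, 4 fell in each fraction, against 35.8% (CCNB1-negative) and 27.3% (CCNB1-positive) of all genes. PFAS, the purine step between GART activities, changed by -1.65 and -1.41 on the log2 scale and DHODH by -1.51 and -1.24, IMPDH1 by -2.05 and -1.67 and ADSS2, which commits IMP to AMP, by -1.78 and -1.46 (the largest limma adjusted p of these 8 values was 3.2e-05). CTPS2 went the other way. It stood at 8.46 and 8.52 in untreated and 9.88 and 10.29 in treated CCNB1-negative libraries, and at 8.70 and 8.44 against 9.71 and 9.87 in CCNB1-positive ones. All treated libraries were above all untreated ones, and CTPS2 was higher by 1.59 (SE 0.18, 3.01-fold, adjusted p = 2.4e-06) and by 1.22 (SE 0.18, 2.32-fold, adjusted p = 5.2e-05).

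CTPS1 and CTPS2 catalyse the same amination of UTP. Per canonical transcript length, CTPS1 made up 94.7% and 94.6% of the pair in untreated CCNB1-negative and 93.1% and 94.4% in untreated CCNB1-positive libraries. After selumetinib its share was 47.9% and 42.4% in CCNB1-negative and 59.2% and 64.4% in CCNB1-positive libraries. The ranges were far apart, and in RPKM CTPS1 went from 66.8 and 66.9 to 9.94 and 10.8 in CCNB1-negative libraries, while CTPS2 went from 3.76 and 3.85 to 10.8 and 14.7. Added up, the pair was thus lower after treatment despite the rise of CTPS2. In the IMP dehydrogenase pair both genes fell, and IMPDH2 made up 68.1% to 72.9% untreated and 74.5% to 78.7% treated. ADSS1, the muscle form of adenylosuccinate synthase, had 21 to 72 reads per library. It was higher by 1.36 in CCNB1-positive cells (adjusted p = 0.011), where its treated libraries stood at 6.34 and 5.61, and its change of 0.54 in CCNB1-negative cells was not called (adjusted p = 0.26).

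**Figure D3:**
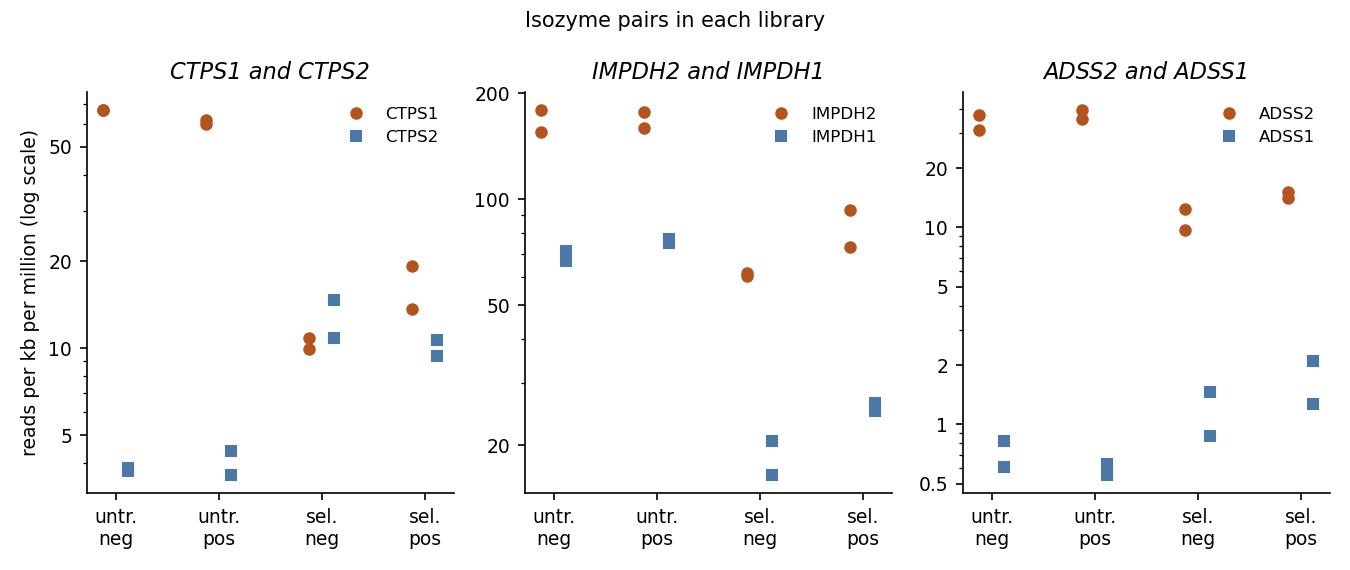
Reads per kilobase of canonical transcript per 1000000 reads (vertical axis, log scale) of 3 isozyme pairs in each library, by group (horizontal axis, untreated or selumetinib, CCNB1-negative or CCNB1-positive). CTPS1 and CTPS2 are widely apart in untreated cells, and in treated CCNB1-negative cells CTPS2 is above CTPS1 in each library (10.8 against 9.94 and 14.7 against 10.8), whereas IMPDH2 stays above IMPDH1 and ADSS2 above ADSS1 in all 8 libraries.

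The supply routes that feed the enzymes were followed as fixed lists. PRPP, the sugar phosphate used by PPAT and UMPS, is made by PRPS1 and PRPS2, and 3 of 4 genes of this list fell in the CCNB1-negative fraction and 2 of 4 in the CCNB1-positive one. Of all genes, 35.8% and 27.3% were lower in the respective fractions. PRPS1 changed by -3.06 and -2.01 and PRPS2 by -2.54 and -1.34, whereas of the regulatory partners PRPSAP1 changed by -0.56 and by -0.16 (adjusted p = 0.32), and PRPSAP2 by -0.14 and -0.09, neither called. Of 8 genes for serine and the one-carbon units that GART and ATIC consume, 7 fell in the CCNB1-negative fraction and 6 in the CCNB1-positive one. MTHFD2, the mitochondrial folate enzyme, changed by -2.86 and -1.74 and MTHFD1, which supplies formyl-tetrahydrofolate in the cytosol, by -2.54 and -2.02. SHMT1 changed by -1.34 and by -0.32 (adjusted p = 0.089), and PSPH, the last step of serine synthesis, by -0.11 and -0.14, neither called.

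Salvage, which rebuilds nucleotides from bases and nucleosides, is the alternative to the route of the 10 enzymes. Of its 7 genes, 5 fell in each fraction, where 35.8% (CCNB1-negative) and 27.3% (CCNB1-positive) of all genes were lower. HPRT1, which rescues hypoxanthine and guanine, changed by -2.86 and -1.53 and PNP by -2.70 and -1.96, whereas UCK1 changed by -0.20 and -0.10, neither called. ADK, adenosine kinase, was the 1 gene that rose, by 0.59 in CCNB1-negative cells (limma adjusted p = 0.017), with 0.34 in CCNB1-positive cells (adjusted p = 0.16). All 5 nucleotide kinases, which turn the products into di- and triphosphates, fell in each fraction, from NME1 at -2.89 and -2.08 to GUK1 at -0.89 and -0.49 and CMPK1 at -0.61 and -0.54. NME1 and NME2 share a readthrough transcript, so their reads may be split uncertainly.

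Of 6 breakdown genes, 3 rose in each fraction, with 2 lower in CCNB1-negative and 3 lower in CCNB1-positive cells, where 38.2% and 38% of all genes were higher and 35.8% and 27.3% lower. XDH, the xanthine oxidoreductase that ends purine breakdown, had 6 to 21 reads in untreated and 133 to 287 reads in treated libraries. In untreated groups its means of 0.87 and 0.38 RPM lay under the filter on low values, which it passed through the treated libraries, so that its call among the 3 followed in part from the filter and no test of it is given. AMPD3, an AMP deaminase, was higher by 2.01 and 1.13, the second of which turned to -0.01 under quantile normalization. NT5E changed by -0.78 and -0.63 and AMPD2 by -0.37 and -0.78.

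**Figure D4:**
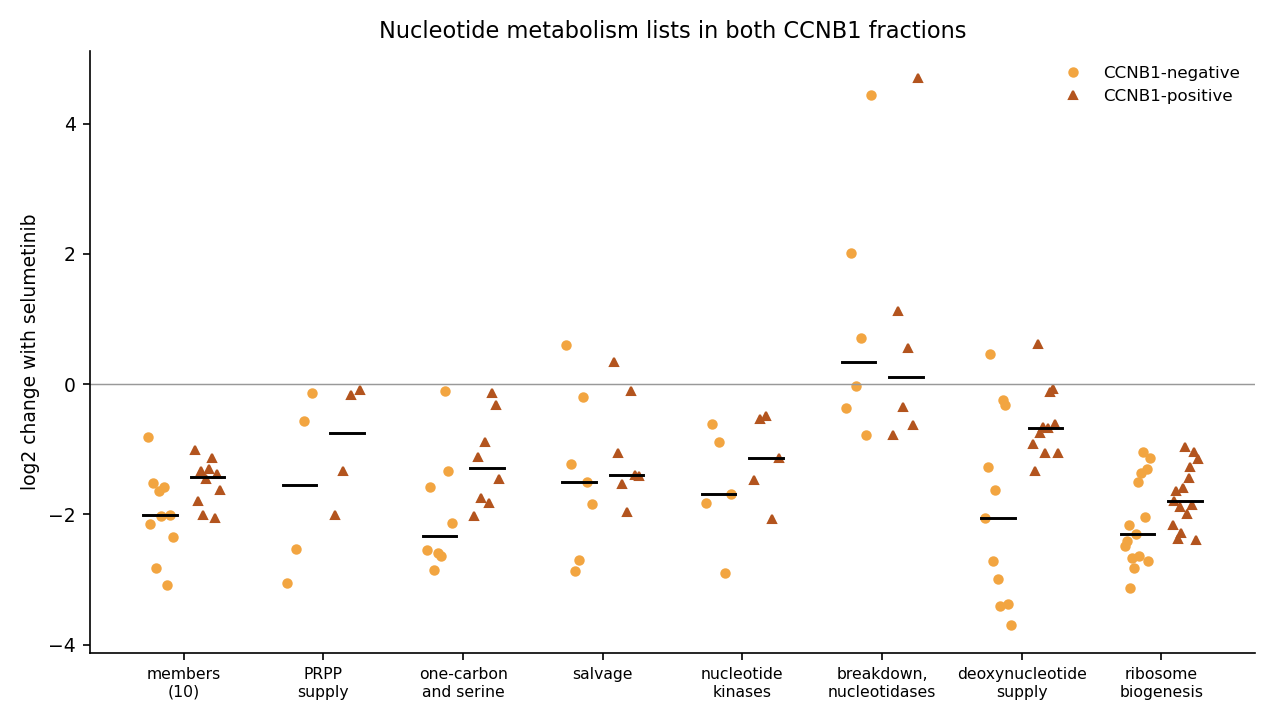
Log2 change with selumetinib (vertical axis) of each gene of 8 lists (horizontal axis) in CCNB1-negative (circles) and CCNB1-positive cells (triangles), with a black line at the median of each list. The medians of the 10 enzymes are -2.02 and -1.42, those of ribosome biogenesis genes -2.30 and -1.79, those of deoxynucleotide supply -2.05 and -0.68, and only the breakdown list has medians above 0 (0.34 and 0.10).

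Lists of genes for other needs of growing cells stood beside the 10 enzymes. For reference, 35.8% and 27.3% of all genes were lower in the respective fractions, and 4.99% had a called positive interaction. Ribosome biogenesis, whose rRNA takes up much of the nucleotides of a cell, had 15 of 15 genes lower in each fraction, with medians of -2.30 and -1.79 and no called interaction (0 of 15). NCL changed by -3.13 and -2.38 and RRS1 by -2.72 and -2.40, while POLR1A with -1.04 and -1.27 and WDR12 with -1.13 and -1.15 had the smallest summed changes. Deoxynucleotide supply, which turns ribonucleotides into DNA precursors, had 8 of 11 lower in each fraction, with medians of -2.05 and -0.68. Here 7 of 11 interactions were called, all positive, with a list median of 1.14. RRM2, the regulated subunit of ribonucleotide reductase, changed by -3.40 and -0.68, and TYMS, thymidylate synthase, by -3.71 and -1.06. RRM2B changed by -0.24 and -0.12, neither called. Thus the 10 enzymes had a median interaction of 0.53 and 1 call of 10, ribosome biogenesis 0.52 and 0 of 15, and deoxynucleotide supply 1.14 and 7 of 11. These calls are from the fit that does not pair libraries by replicate number. With such pairing more of the enzymes were called, and the calls of the other lists were not counted.

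**Figure D5:**
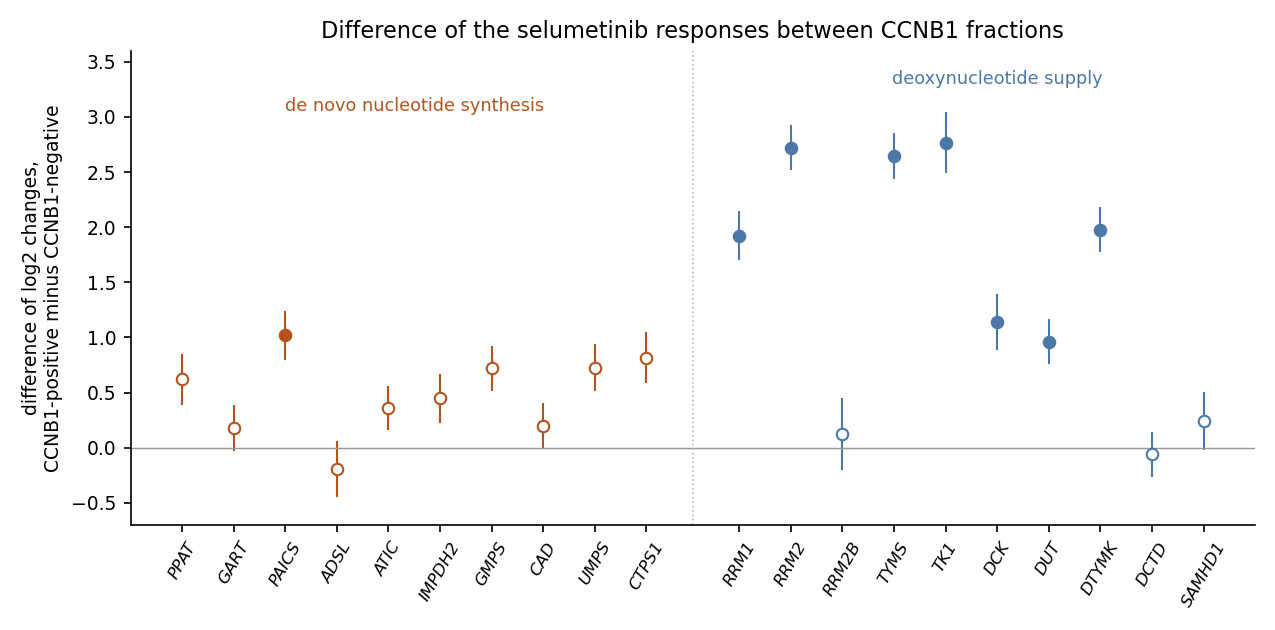
Interaction, the log2 change with selumetinib in CCNB1-positive minus that in CCNB1-negative cells (vertical axis), with standard errors, for the 10 enzymes (left) and 10 of the 11 deoxynucleotide supply genes (right), where filled points have a limma adjusted p under 0.05. Of the enzymes only PAICS, at 1.02, is filled, against 7 deoxynucleotide genes. The fit does not pair libraries by replicate number.

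MYC and ATF4, transcription factors known to act on these pathways, were both lower with selumetinib. MYC changed by -2.27 (limma adjusted p = 4.2e-08) and -1.85 (adjusted p = 8.6e-07) and ATF4 by -0.99 and -0.75. Across the 8 libraries, the genes near the median profile of the 10 enzymes, by Euclidean distance between log2 values centred on their mean, included IDH3A (0.15), NAF1 (0.21), ENOPH1 (0.23) and SSB (0.27). Of the enzymes themselves PPAT was the closest to that profile (0.19) and PAICS the farthest (1.34).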

How the data were processed

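The mRNA-seq of 8 HT29 libraries was analysed. Per the labels and the study's methods, the authors used Trim Galore 0.5.0 for trimming, HISAT2 2.1.0 for mapping on GRCh38 and SeqMonk for quantification, with DESeq2 as their test. They deposited log2 values per gene scaled to total reads, in which genes without reads stand at the log2 of 0.9 scaled reads. The annotation release and strand setting are not given in the sources used here. 0 value columns were set aside. Values that came out whole after 1 constant was removed (tolerance 0.05 reads) gave the reads per gene and the depth, without molecular identifiers, so depth bounds counting error only.

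Genes at or above a mean of 1 RPM (log2 value 4.58) were tested with limma 3.58.1 (mean-variance trend, 4 group coefficients, no block) in R 4.3.3, with Benjamini-Hochberg adjustment over 14219 genes and calls at an adjusted p under 0.05. Of the branches foreseen for counts, linear and log2 values, that for log2 was used. Errors in the text are limma standard errors or 95% intervals. The fit was tested on simulated data. Tables and figures were made in Python 3.11.15 with scipy 1.17.1, pandas 2.3.3, matplotlib 3.10.9 and numpy 2.4.6. Identifiers matched GENCODE release 44 for 99.3%. Promoters are from RefSeq.

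The 10 genes and the lists were chosen with earlier results of these data known. Of each list the 2 lowest and 2 highest genes by summed change are named, and all remaining de novo enzymes and both regulators. The values of 3 genes under these rules are not reported here. PHGDH is named outside this rule, after its values were seen. Alternatives were quantile and median-of-ratios scaling, no filter or one of 10 RPM, pseudocounts of 0.1 and 1 RPM, a replicate block, only the groups compared, limma-voom on recovered reads, an adjusted p under 0.01, a required 2-fold change and each library left out in turn. The pseudocounts and limma-voom also scale to reads on genes, not to the authors' totals. No source used here says that a replicate number marks a shared culture or day, so the fit has no block. With 2 libraries a group, a permutation test of 1 gene cannot pass 0.05.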

Additional observations from a re-analysis of the deposited data

Results flagged for a closer look

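The response to selumetinib differed between the CCNB1 fractions, by the interaction term of the limma model, for 8 of the genes named above. It also differed for PHGDH, which was named after its values were seen. For each, the change was less negative in CCNB1-positive cells. Of all genes, 4.99% had a called positive and 0.345% a called negative interaction, so that 93.5% of called interactions were positive. That limma model does not pair libraries by replicate number. Among the 10 enzymes the only gene was PAICS, with an interaction of 1.02 on the log2 scale (adjusted p = 0.015). PRPS1 and PRPS2, which make the PRPP that starts the route of PAICS, had 1.05 (adjusted p = 0.039) and 1.20 (adjusted p = 0.018). In the one-carbon list MTHFD2 had 1.12 (adjusted p = 0.0071) and SHMT1 1.02 (adjusted p = 0.013), and PHGDH, the opening step of serine synthesis, had 1.70 (adjusted p = 0.00022). HPRT1 had 1.33 (adjusted p = 0.0031), with values of 8.04 and 7.92 in treated CCNB1-negative against 9.08 and 9.38 in treated CCNB1-positive libraries. TYMS had 2.64 (adjusted p = 4.4e-06) and RRM2 2.72 (adjusted p = 4.1e-06).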

How the results depend on the processing

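All 10 enzymes were called lower in both fractions under every alternative run, but for ADSL in CCNB1-negative cells with the 2-fold requirement. The median change in CCNB1-negative cells was -1.90 with quantile normalization, -2.27 with median-of-ratios scaling, -1.87 and -1.82 with pseudocounts of 0.1 and 1 RPM and -1.88 with limma-voom. In CCNB1-positive cells it was -1.76 with median-of-ratios scaling and -1.31 and -1.28 with the pseudocounts. Scaling moved all genes as well: relative to the median of all genes, the medians were -2.07 and -1.59 with the authors' scaling and -1.84 and -1.39 with quantile normalization. Median-of-ratios scaling subtracts the same value from every gene of a library, so its relative medians equal those of the authors' scaling by construction. The pseudocount and limma-voom settings also scale to reads on genes in place of the authors' total reads, so their shift may hold both changes. With 0.1 RPM the median of all genes in CCNB1-negative cells went from 0.05 to 0.19, and relative to it the medians of the enzymes were -2.06 and -1.58 with 0.1 RPM and -2.07 and -1.59 with limma-voom. Which of the changes moved the values was not tested. Between untreated fractions the median was 0.019 with median-of-ratios scaling and ranged from -0.17 to 0.02 when libraries were left out. Between treated fractions 3 genes were called at an adjusted p of 0.01 and 0 with the 2-fold requirement, and 2 to 4 when libraries were left out, with a median of 0.37 to 0.56. The interaction was called for 0 genes without the filter and at an adjusted p of 0.01, and for 0 to 2 when libraries were left out, with a median of 0.45 to 0.67.

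The correlation of replicate differences was 0.35 between untreated and 0.43 between treated fractions but -0.02 across treatments in each fraction. Same-numbered fractions of 1 treatment thus deviated together, whereas the sources do not say what the numbers share and each treatment has only 2 pairs, so whether the fractions are paired within treatment is not known. With a replicate block, 6 genes were called between treated fractions and 4 interactions (PAICS, CTPS1, UMPS and GMPS). With a replicate block within treatment there were 8 and 7, and between untreated fractions 1 lower (GMPS) and 1 higher (CAD). Calls became more common among all 14219 genes as well. Between treated fractions 1958 were higher without a block, 2327 with the replicate block and 3845 with the block within treatment. Positive interactions numbered 709, 814 and 2739. Between untreated fractions the block within treatment called 1248 lower and 675 higher, against 214 and 194 without a block. No call on the selumetinib responses of the 10 enzymes changed with the replicate block. The counts of calls between treated fractions and of interactions thus depend on whether the libraries are paired.

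Single values turned sign where they were near 0. Under the pseudocounts of 0.1 and 1 RPM and limma-voom, PRPSAP2 was 0.0030, 0.0028 and 0.0043 in CCNB1-negative and 0.014, 0.013 and 0.016 in CCNB1-positive cells, PSPH 0.027, 0.026 and 0.028 in CCNB1-negative, UCK1 8.6e-05, 0.00014 and 0.0059 in CCNB1-positive cells, and GART -0.0032, -0.0031 and -0.0054 between treated fractions. RRM2B was 0.018 in CCNB1-positive cells with limma-voom, ADK -0.0065 there with median-of-ratios scaling, and quantile normalization gave -0.0075 for AMPD3 there, -0.43 for ADSS1 in CCNB1-negative cells and -0.059 for GART between treated fractions. With libraries left out, PRPSAP2 ranged from -0.29 to 0.016 in CCNB1-negative and from -0.25 to 0.065 in CCNB1-positive cells, RRM2B from -0.41 to 0.17 in the latter, GART from -0.034 to 0.11 and ADSL from -0.21 to 0.12 between treated fractions, and the interaction of ADSL from -0.40 to 0.021.

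Quantile normalization moved the share of higher among called genes from 58.1% to 47.1% for the response of CCNB1-positive cells, from 47.5% to 65.7% between untreated and from 63.6% to 46.5% between treated fractions, and the share of positive interactions from 93.5% to 69.2%. Median-of-ratios scaling moved these shares to 40.9% for the CCNB1-positive response and to 61.1% between untreated fractions, and between treated fractions it was 52.0% with a pseudocount of 1 RPM and 50.04% with limma-voom. The depth leaves 155 reads for the lowest enzyme in the shallowest group, and 2 libraries a group leave the spread of a single gene to be borrowed from all genes.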
